A study of Homo sapiens with 16 samples.

Results

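Gene expression was followed in untreated H1 cells (a long-established human embryonic stem cell line) kept in mTeSR medium on Matrigel-coated plates for a week without any inducing factor. The comparison sets the 3 untreated arrays of days 5, 6 and 7 against the 3 untreated arrays of days 1, 2 and 3, which is 6 of the 16 Illumina bead arrays of the series. The 2 other untreated arrays, of days 0 and 4, did not enter the test and are given beside it, and the 8 arrays of cells that received bone morphogenetic protein 4 (BMP4, 100 ng/ml) were left out. Members were chosen by their labels alone (treatment and day), so no measured value decided which array belongs to which window. Every array is total RNA of the same line, and the labels do not say whether the days come from 1 plating, whether cells were passaged between days, or when medium was changed. Neighbouring days therefore stand in for replicates, and each p-value measures the spread between these days and arrays and not between independent cultures.

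Human embryonic stem cells hold a primed pluripotent state through the transcription factors POU5F1 (OCT4), SOX2 and NANOG, which bind many of the same genes and hold up their own transcription. FGF2 and a TGF-beta, Activin or NODAL signal through SMAD2 and SMAD3 sustain this state in culture, and NANOG is a known target of that SMAD signal. When the signal is lowered, embryonic stem cells are known to turn towards neural ectoderm of anterior (forebrain) character, marked by PAX6, SIX3, OTX2 and LHX2, while SOX2 continues in that lineage.

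Levels below are log2 of the deposited intensity after background correction and an offset of 16, and "drift" is the mean log2 level of days 5 to 7 minus that of days 1 to 3. A log2 level of 5.05 is the detection floor, the 99th percentile of the background estimated from the intensities. Markers of the labelled cell type were present. Of 12 markers of undifferentiated cells 11 lay above the floor on all 8 untreated arrays, CRIPTO (TDGF1) only on some, and their summed corrected intensity was 37600 to 41530 on days 1 to 3 and 34840 to 39290 on days 5 to 7. Neural ectoderm markers did not stay level: the sum over PAX6, SIX3, LHX2, SOX1 and ZIC1 was 36.8 to 55.9 on days 1 to 3 and 204.3 to 1530 on days 5 to 7, with SOX1 and ZIC1 above the floor on no array. Sums for endoderm (171 to 315.3, then 127.7 to 177.2), primitive streak (39.8 to 138.3, then 73.8 to 111), trophoblast and amnion (141.4 to 302, then 169.6 to 326.1), neural crest (60.0 to 90.5, then 52.6 to 119.9), neurons (2838 to 3566, then 2318 to 3089) and blood and endothelium (431.2 to 509.1, then 391.1 to 507.6) overlapped between the windows. Fibroblast collagen and lumican markers summed to 1723 to 2206 and then 2137 to 2608, with DCN above the floor on no array. The day 0 array stood apart from the others: 475 of 11783 tested genes lay more than 1 log2 unit from their mean over days 1 to 3, against 21 on day 4, 55 on day 5, 118 on day 6 and 268 on day 7. Its median correlation with the other untreated arrays over these genes was 0.970, and that of the other 7 arrays was 0.978 to 0.989.

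A small share of the tested genes passed the test for drift between the windows, which does not show that the others held level. At an unadjusted p under 0.05 by limma 753 genes were higher and 870 lower. Of 11783 tested genes 171 passed the test (1.45%; limma with Benjamini-Hochberg adjustment, adjusted p under 0.05), 95 higher in days 5 to 7 (0.806%) and 76 lower (0.645%). The rises were the larger changes: 50 of the 95 rises and 18 of the 76 falls reached 2-fold, and the median drift of all tested genes was -0.0095. In all 171 the 3 values of one window lay outside those of the other, as they did in 18.7% of all tested genes (8.95% with higher and 9.77% with lower late values). For 11 of the 95 rises no array of days 1 to 3 lay above the floor, and for 2 of the 76 falls none of days 5 to 7 did, so these folds are given as lower bounds. Of all tested genes 41 had no array of days 1 to 3 above the floor and 44 none of days 5 to 7. Such genes passed the filter only through the window where they are high, which limits their adjusted p-values. VWF, ALDH1A2 and FEZF1-AS1 are among these rises. With arrays centred on housekeeping genes, which moved the median drift of all genes to -0.0817, the split was 91 higher and 159 lower (36.4% higher, against 55.6%). The calls also rest on a variance model that follows intensity: with a single prior variance 4 genes passed (LMO1, FEZF1-AS1, PKDCC and NPPB), and SIX3, FEZF1, EPHA4, SOX21 and ACTA1 had an adjusted p of 0.0501 each. Fewer genes were called without day 1 (41), day 2 (64) or day 7 (110).

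**Figure D1:**
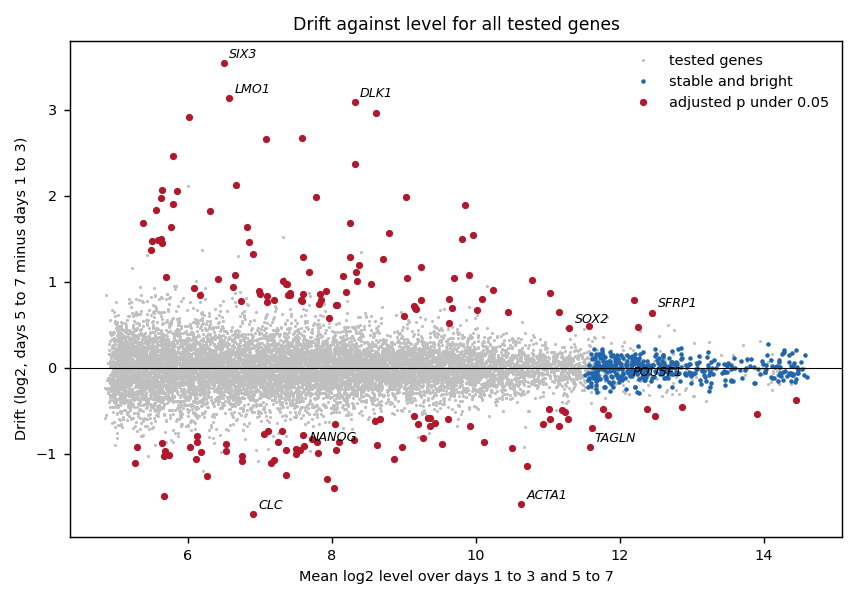
Drift of each of the 11783 tested genes (vertical axis, log2 difference, days 5 to 7 minus days 1 to 3) against its mean log2 level over the 6 arrays (horizontal axis). Red points are the 171 genes with an adjusted p under 0.05 and blue points the 408 stable and bright genes described at the end; the rises reach 3.54 (SIX3) and the falls -1.70 (CLC), and most red points lie at middle and low levels.

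The 2 untreated arrays outside the test show how the change ran. For 90 of the 95 rises the day 4 value lay between the window means, and in 84 it was above every value of days 1 to 3. Day 7 was the highest of the 8 arrays in 78 of the rises. Levels went up at each step from day 4 to day 7 in 54. Of the 76 falls 75 had day 4 between the window means, 50 had their lowest value on day 7, and 26 went down at each step from day 4. Days 5 to 7 also chose these genes, and the shares of such courses over all tested genes were not computed. Day 7 lay further from days 1 to 3 than days 5 and 6 did. On it 268 tested genes were more than 1 log2 unit away, against 55 and 118. Whether these courses continued or the day 7 array stood apart was not tested. The day 0 array did not resemble the late window for these genes, since in only 1 rise and 1 fall did its value lie beyond the mean of days 5 to 7.

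**Figure D2:**
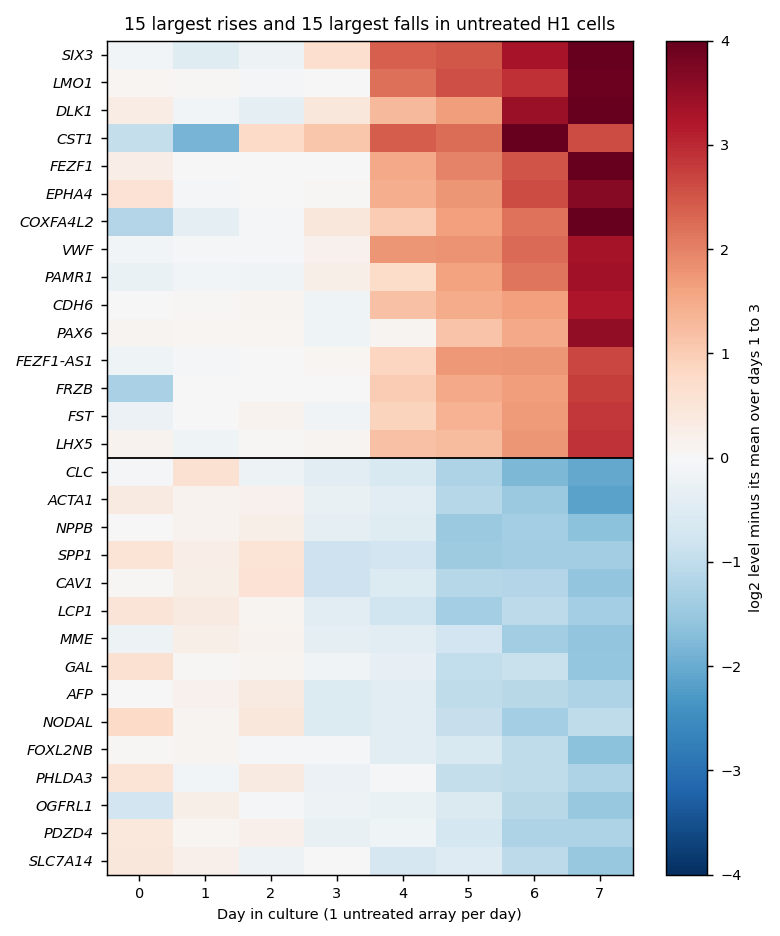
Log2 level minus the gene's mean over days 1 to 3 (colour, saturated at 4 in either direction) for the 15 largest rises and the 15 largest falls past the test (rows) on each of the 8 untreated arrays (columns, day 0 to day 7). Most rises darken from day 4 onwards and are darkest on day 7, PAX6 from day 5, and CST1 is the exception with its highest value (11.16) on day 6.

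Genes of the anterior neural plate and forebrain, most of them transcription factors, gave 11 called rises, more than any other list. Of 34 listed genes of forebrain and early neural ectoderm 22 could be tested, and 11 rose (SIX3, DLK1, FEZF1, PAX6, LHX5, RAX, HESX1, SOX21, SHISA2, OTX2 and POU3F1) while none fell, against 0.806% higher and 0.645% lower over all genes. This list, like the others, was chosen with earlier results of these data known, so the count is a description and not a test. The median drift of the 22 was 1.21, and 20 had a positive drift. Of the remaining 12, 10 had a named probe that did not pass the filter (SIX6, FEZF2, OTX1, SOX1, ZIC1, ZIC4, MEIS2, NR2F1, PLAGL1 and POU3F2), and the others were not analysed here. For 5 of the 22 tested genes, 4 of them among the 11 rises, no early array lay above the floor, which puts them in the table only through their late values. Of the 13 members above the floor on all 6 arrays 6 rose, and 5 did when only such genes were fitted. The count of rises was 6 without day 1, 7 without day 2, 10 without day 7 and 6 with day 4 added to the late window. RNA of a whole culture cannot tell more cells of a neural type from more of these transcripts per cell.

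SIX3, a homeobox factor that patterns the forebrain and eye field, had log2 levels of 4.26, 4.52 and 5.41 on days 1, 2 and 3 and of 7.21, 8.04 and 9.56 on days 5, 6 and 7. Its day 0 and day 4 values were 4.63 and 7.11, so that 1 of 3 early arrays and all late arrays exceeded the floor. The rise was at least 8.57-fold (drift 3.54, SE 0.43, adjusted p = 0.00108). FEZF1, a zinc finger repressor of the early forebrain, stayed under the floor on days 0 to 3 (4.81, 4.54, 4.56 and 4.59) and then read 6.07, 6.54, 7.09 and 8.79 on days 4 to 7, a rise of at least 5.36-fold (drift 2.91, SE 0.39, adjusted p = 0.002). The antisense transcript named FEZF1-AS1, measured by a probe of its own, took the same course, from 4.73, 4.83 and 4.91 to 6.56, 6.58 and 7.48 (at least 3.54-fold, adjusted p = 0.00107).

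PAX6, the paired-box factor that marks the first human neuroectoderm, came later than SIX3. It read 4.71, 4.68, 4.69, 4.43 and 4.72 on days 0 to 4, all under the floor, and then 5.73, 6.13 and 8.15, so that day 7 was far above the others. The rise was at least 3.08-fold (drift 2.07, SE 0.43, adjusted p = 0.0251), a second PAX6 probe had a drift of 1.31, and the call was lost without day 1, day 2 or day 3 (adjusted p up to 0.192 over all alternatives). RAX, the homeobox factor of the eye field, had the same shape, with 4.46, 4.64 and 4.50 early and 5.53, 5.62 and 7.51 late (at least 2.25-fold, adjusted p = 0.0422), and it too lost its call without day 1, 2 or 3. LHX5, a LIM homeobox factor of the anterior neural plate, had already left the floor on day 4 at 5.82 and went from 4.47, 4.70 and 4.75 to 5.90, 6.40 and 7.52 (at least 2.94-fold, adjusted p = 0.00508). The related gene LHX2 had non-overlapping windows and a drift of 2.11 but did not pass the test (adjusted p = 0.0930).

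Genes of this list that were already measurable early rose as well. OTX2, a homeobox factor of both primed epiblast and forebrain, was 7.86, 7.86 and 8.53 on days 1 to 3 and 9.16, 9.48 and 9.38 on days 5 to 7, with 6.76 on day 0 and 8.82 on day 4. That is 2.39-fold (drift 1.26, SE 0.17, adjusted p = 0.002), and a dimmer OTX2 probe had a drift of 3.05. SOX21, an HMG-box factor of neural progenitors, rose 2.91-fold from 9.06, 8.86 and 9.64 to 10.53, 10.60 and 11.07 (adjusted p = 0.00107), and HESX1, a homeobox repressor of the anterior neural plate and pituitary primordium, rose 3.21-fold from 6.98, 7.58 and 7.65 to 8.50, 8.78 and 9.98 (adjusted p = 0.008). DLK1, an imprinted membrane protein that resembles Notch ligands, stood at 7.09 on day 0 and 8.08 on day 4 and went from 6.67, 6.42 and 7.23 to 8.44, 10.22 and 10.91 (8.48-fold, drift 3.08, SE 0.42, adjusted p = 0.002). POU3F1 (OCT6), a POU factor of epiblast and neural progenitors, rose less, 1.81-fold (drift 0.85, adjusted p = 0.0468), and lost its call without day 1, 2, 5 or 7, as HESX1 did without day 1. For SOX3, an HMG-box factor close to SOX2, the drift was -0.55 and did not pass the test (adjusted p = 0.0564).

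Genes of differentiated neurons gave no call. Over all tested genes 1.45% were called, so most lists of this size would hold none. The 0 counts here and in the next lists therefore say little about these lineages. Of 18 listed neuronal genes 13 were tested and none passed in either direction by limma, with 2 higher and 3 lower at an unadjusted p under 0.05. Their median drift was -0.07, and the largest, -0.68, was that of NPTX1, a secreted pentraxin (adjusted p = 0.216), for which another probe gave -0.14. None of 8 tested neural crest genes passed the test, where SOX9 had the largest drift, 0.73, with windows that did not overlap (adjusted p = 0.116). The same held for 4 tested genes of the primitive streak, led by EOMES at 0.51 (adjusted p = 0.550), for 13 of surface ectoderm, amnion and trophoblast, led by TFAP2A at 0.64 (adjusted p = 0.375), and for 4 HOX and other posterior genes, led by HOXC6 at 0.64 (adjusted p = 0.138). At an unadjusted p under 0.05 the neural crest list had 1 higher and 1 lower, the streak list 0, the surface ectoderm list 1 lower and the posterior list 1 higher. TBXT, MIXL1, GSC, CDX1 and CDX2 were below the filter.

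**Figure D3:**
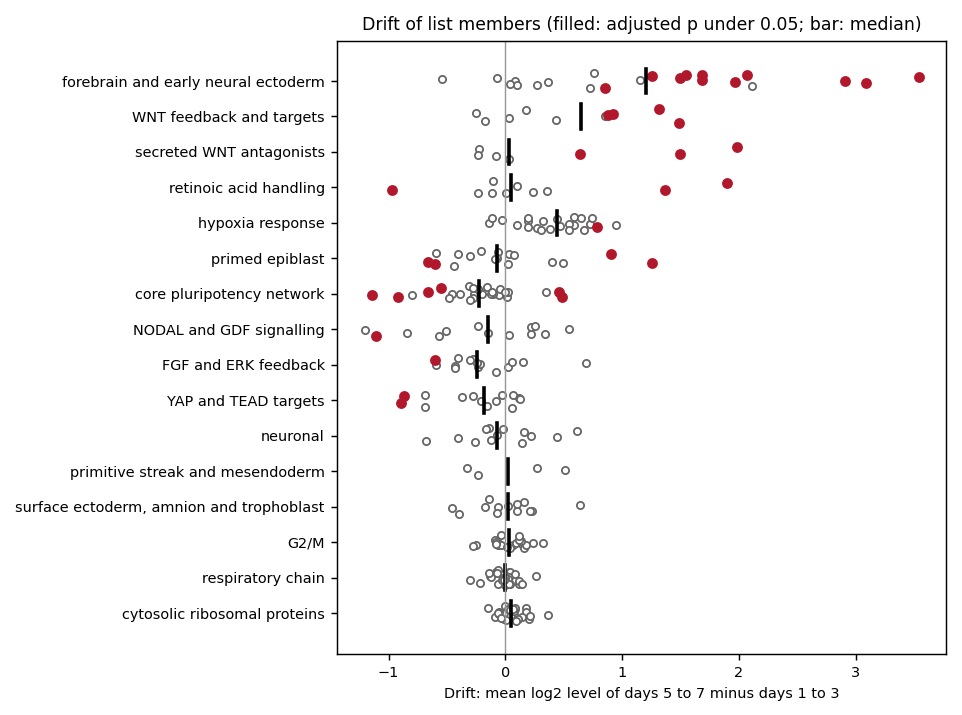
Drift (horizontal axis, log2 difference, days 5 to 7 minus days 1 to 3) of each tested member of 16 gene lists (rows). Filled red points passed the test, open points did not, and the black bar is the median of the list; the forebrain list has its median at 1.21 with 11 filled points, whereas the lists for neuronal genes, the primitive streak, G2/M, the respiratory chain and ribosomal proteins hold open points only and have medians between -0.07 and 0.05.

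Genes of WNT signalling formed a second group of rises. This pathway runs from WNT ligands through frizzled receptors to beta-catenin, which switches on target genes with LEF1 or TCF factors, and secreted antagonists keep ligands from the receptors. Of 10 tested feedback and target genes 4 rose and none fell (median drift 0.64), against 0.806% higher and 0.645% lower over all genes. The rises were the zinc finger factors SP5 and SP8, the receptor gene TNFRSF19 and LEF1 itself. TNFRSF19 went from 5.90, 6.63 and 6.19 to 7.21, 7.56 and 7.90 (2.49-fold, drift 1.32, SE 0.21, adjusted p = 0.0058). SP5 went from 4.79, 5.40 and 4.46 to 5.80, 6.05 and 7.29, at least 2.31-fold (adjusted p = 0.0368), and LEF1 from 5.38, 5.78 and 5.71 to 6.25, 6.54 and 6.84, 1.90-fold (adjusted p = 0.0333). AXIN2, a target that dampens the pathway, did not share the direction, with a drift of -0.25 (adjusted p = 0.398). Without day 1 the list held 1 call, and without day 2, 3, 6 or 7 it held 2. The median was 0.42 without day 7.

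In the list of WNT antagonists 3 of 7 tested genes rose and none fell, against 0.806% higher and 0.645% lower over all genes. However, 4 of the 7 had a positive drift and the median drift was 0.03. SHISA2 of this list acts inside the cell and is also among the forebrain rises. FRZB, which binds WNT ligands outside the cell, was level on days 1 to 3 (6.78, 6.78 and 6.79) and then read 7.79, 8.30, 8.46 and 9.56 on days 4 to 7, a 3.96-fold rise (drift 1.99, SE 0.24, adjusted p = 0.00108). SFRP1, of the same family, was bright throughout and went from 11.95, 12.20 and 12.24 to 12.69, 12.84 and 12.77 (1.55-fold, adjusted p = 0.00501). SHISA2, which holds WNT and FGF receptors inside the cell, rose 2.81-fold from 8.81, 8.56 and 9.82 to 10.08, 10.55 and 11.04 (adjusted p = 0.0106). SFRP2 was level, at a drift of 0.03 (adjusted p = 0.947), and the SHISA2 call was lost without day 1 or day 2, where 2 antagonists passed.

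Of 10 tested genes that handle retinoic acid, a morphogen that posteriorizes neural tissue, 2 rose and 1 fell, against 0.806% and 0.645% over all genes. The enzymes that synthesize retinoic acid parted in direction. CYP26A1, which degrades it, rose 3.72-fold (8.27, 8.40 and 10.05, then 10.69, 10.66 and 11.05, adjusted p = 0.00777), with its step between day 2 and day 3 and its call lost without day 2. ALDH1A2, a synthesizing enzyme, was under the floor on days 1 to 3 (4.72, 4.72 and 4.98) and reached 5.57, 5.98 and 6.97, at least 2.18-fold (adjusted p = 0.0257), with the call lost without day 1, 2, 3, 6 or 7. ALDH1A3, another synthesizing enzyme, fell 1.96-fold (7.09, 7.04 and 6.93, then 6.29, 6.15 and 5.71, adjusted p = 0.0154), with its call lost without day 1 or day 2, and its second probe had a drift of -0.47. The other 7 tested genes of this list did not pass.

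Several rises belong to no single pathway. LMO1, a LIM-only cofactor of transcription expressed in the developing brain, was flat and just under the floor or at it on days 0 to 3 (5.08, 5.05, 4.95 and 5.03), and read 7.22 on day 4 and 7.58, 7.92 and 8.93 on days 5 to 7. Its rise of at least 8.54-fold had the lowest adjusted p of all tested genes (drift 3.13, SE 0.26, adjusted p = 6.04e-05), and it kept its call in all 16 alternatives that tested it. EPHA4, a receptor for ephrins, showed the same step between day 3 (6.30) and day 4 (7.70) and reached 9.90 on day 7 (6.38-fold, drift 2.67, SE 0.32, adjusted p = 0.00107). FST, the secreted follistatin that binds and neutralizes activin, went from 8.03, 8.19 and 7.91 to 9.45, 9.75 and 10.86 (3.94-fold, adjusted p = 0.00126). Cadherin CDH6 rose 4.35-fold (5.66, 5.73 and 5.44, then 7.09, 7.24 and 8.86), and PAMR1, which encodes a secreted protease-like protein, rose 5.18-fold (7.04, 6.99 and 7.37, then 8.75, 9.27 and 10.50). VWF, the endothelial clotting factor, rose at least 3.91-fold (4.47, 4.48 and 4.72, then 6.34, 6.82 and 7.90, adjusted p = 0.00108), while of the endothelial markers CDH5 and PECAM1 lay above the floor on no array and TEK on all 8 untreated arrays.

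CST1, a secreted cystatin, was the least regular of the 15 largest rises, with 5.27, 7.90 and 8.25 on days 1 to 3 and 9.38, 11.16 and 9.74 on days 5 to 7 (7.76-fold, drift 2.96, SE 0.58, adjusted p = 0.0173), and its call was lost without day 6. COXFA4L2 (NDUFA4L2), a mitochondrial protein known as a target of hypoxia-inducible factor, rose 6.30-fold through 5.37, 5.71 and 6.21 to 7.39, 7.92 and 9.94 (adjusted p = 0.00742). The hypoxia list itself had 1 of 23 tested genes called, DDIT4, an inhibitor of mTORC1, which rose 1.72-fold (11.89, 11.55 and 11.97, then 12.76, 12.38 and 12.62, adjusted p = 0.00508). Over all genes 0.806% were called higher. Of the 23 hypoxia genes 20 had a positive drift, against 5702 of 11783 over all genes, and their median was 0.44. Late values lay wholly above the early ones in 8 and wholly below in 0 (8.95% and 9.77% over all genes). At an unadjusted p under 0.05 by limma 12 were higher and 0 lower, against 753 and 870 of all 11783 tested genes. The median was 0.19 without day 7. Under a straight line fitted over days 1 to 7 this list had 8 calls, all higher. In glycolysis, whose genes overlap in part with that response, 0 of 19 passed, with HK2, the inducible hexokinase, nearest (drift 0.59, adjusted p = 0.0530) and 5 higher and 1 lower at an unadjusted p under 0.05.

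Further called rises were mostly the only rise of a list, though the list of noncoding and imprinted genes held 2 rises among 14 tested. Over all genes 0.806% were called higher and 0.645% lower. ID2, a BMP target that inhibits helix-loop-helix factors, rose 1.74-fold (adjusted p = 0.00866) as the only one of 12 tested BMP and SMAD targets. In the Notch pathway the repressor HES1 rose 1.72-fold (adjusted p = 0.0387) and the related HEY2 fell 1.94-fold (adjusted p = 0.0141), while the other 15 tested members did not pass. CXCR4, a chemokine receptor of definitive endoderm and also of neural progenitors, rose at least 2.47-fold (adjusted p = 0.0198), whereas AFP of the same endoderm list fell. H19, an imprinted noncoding RNA, rose at least 2.38-fold (adjusted p = 0.028), and FBN2, a microfibril protein, rose 1.96-fold (adjusted p = 0.0215) as 1 of 20 tested matrix genes. The calls of HES1, CXCR4, H19, ID2 and FBN2 were lost without day 1 or day 2, those of H19 and FBN2 also without day 3, those of HES1 and H19 also without day 7 and that of HES1 without day 6, and that of HEY2 without day 1 or day 3.

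Among the falls were genes of muscle-type actin and of the caveolar coat, grouped here after their values had been seen. ACTA1, skeletal alpha-actin, went down through the week, at 11.56, 11.59 and 11.11 on days 1 to 3 and 10.27, 9.95 and 9.27 on days 5 to 7, with 11.76 on day 0 and 10.98 on day 4. The fall was 3.01-fold (drift -1.59, SE 0.20, adjusted p = 0.00108). TAGLN, an actin-binding protein of smooth muscle, fell 1.90-fold from 12.04, 12.35 and 11.73 to 11.18, 11.20 and 10.96 (adjusted p = 0.00314). ACTG2, smooth muscle gamma-actin, fell 1.90-fold (9.37, 9.72 and 9.22, then 8.99, 8.57 and 7.98, adjusted p = 0.0343), and the caveolar coat genes CAV1 and CAV2 fell 2.45-fold (adjusted p = 0.0215) and 2.03-fold (adjusted p = 0.0186). A second CAV1 probe had a drift of -0.72, and CAV1 and ACTG2 lost their calls without day 1, 2, 6 or 7, and CAV2 without day 1, 2, 3 or 6. ACTA2, the vascular smooth muscle actin of the mesoderm list, did not pass (adjusted p = 0.348), nor did cardiac ACTC1 (adjusted p = 0.0621).

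The list of YAP and TEAD target genes, which answer to cell shape and density, had 2 falls and no rise among 14 tested (median drift -0.18). Over all genes 0.645% were called lower and 0.806% higher. The falls were CCN1 and TEAD4, of which TEAD4 is listed as a partner of YAP. With 1 array left out the list had 1 to 3 falls, and the median was -0.30 without day 5 and -0.08 without day 7. TEAD4, a DNA-binding partner of YAP, went from 10.03, 10.01 and 9.87 to 9.20, 8.86 and 9.18 (1.86-fold, drift -0.89, SE 0.12, adjusted p = 0.00223). CCN1, a secreted matrix protein that is also an immediate early gene, went from 10.69, 10.35 and 10.60 to 9.75, 10.04 and 9.26 (1.82-fold, adjusted p = 0.0154). The related CCN2 lay close behind (adjusted p = 0.0647). The CCN1 call was lost without day 1 or day 3.

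Promoter windows are shown for LMO1, the gene with the lowest adjusted p, for SP5 of the WNT targets and for the actin genes ACTA1 and ACTG2, to set the letters beside the values. They run from 250 bases before to 50 after the RefSeq gene start (GRCh38.p14), 5′ to 3′ on the gene's strand, with motif matches on either strand in capitals. The LMO1 window (chr11:8268738-8269037, minus strand) holds 2 copies of TAATTA, the core read by many homeobox factors. The SP5 window (chr2:170715087-170715386, plus strand) holds 1 copy of ATCAAAG, a core read by LEF1 and TCF factors. In ACTA1 (chr1:229434045-229434344, minus strand) the capitals mark 1 CArG box, the site type of serum response factor, and 1 TATAAA, and in ACTG2 (chr2:73892758-73893057, plus strand) 2 CArG boxes and 1 TATAAA, the latter on the opposite strand.
LMO1: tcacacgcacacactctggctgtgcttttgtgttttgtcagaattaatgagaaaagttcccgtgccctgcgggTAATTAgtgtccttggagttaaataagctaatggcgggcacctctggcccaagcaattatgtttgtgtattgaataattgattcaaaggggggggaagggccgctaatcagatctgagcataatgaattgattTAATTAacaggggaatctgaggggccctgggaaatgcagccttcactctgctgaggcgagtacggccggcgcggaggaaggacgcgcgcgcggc
SP5: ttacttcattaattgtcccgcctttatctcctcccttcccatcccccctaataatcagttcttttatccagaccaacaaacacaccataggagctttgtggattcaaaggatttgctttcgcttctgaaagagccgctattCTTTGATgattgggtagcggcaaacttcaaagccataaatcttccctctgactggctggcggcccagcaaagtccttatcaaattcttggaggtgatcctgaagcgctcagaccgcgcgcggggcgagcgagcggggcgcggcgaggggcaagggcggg
ACTA1: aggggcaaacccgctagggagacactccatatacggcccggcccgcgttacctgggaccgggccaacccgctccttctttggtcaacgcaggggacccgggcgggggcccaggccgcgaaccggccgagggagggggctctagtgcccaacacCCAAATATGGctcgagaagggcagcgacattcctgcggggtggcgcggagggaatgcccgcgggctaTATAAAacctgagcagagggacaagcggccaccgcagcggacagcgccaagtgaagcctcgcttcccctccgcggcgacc
ACTG2: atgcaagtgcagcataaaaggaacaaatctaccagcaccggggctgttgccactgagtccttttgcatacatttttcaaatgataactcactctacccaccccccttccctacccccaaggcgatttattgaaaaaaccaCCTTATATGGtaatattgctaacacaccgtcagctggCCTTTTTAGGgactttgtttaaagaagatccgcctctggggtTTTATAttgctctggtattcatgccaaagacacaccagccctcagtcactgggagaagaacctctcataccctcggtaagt

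Over all 35116 windows of the RefSeq table a CArG box occurs in 1.29%, TAATTA in 4.84%, TATAAA in 11.5% and ATCAAAG in 2.62%. Over the windows of tested genes alone these shares are 1.22%, 2.42%, 6.24% and 1.59%. Among the genes that fell, 60 had a window and 3 of these held a CArG box (ACTA1, ACTG2 and RND3), while of 67 genes that rose with a window 2 did (CXCR4 and LEF1). TAATTA was found in windows of 6 of the 67 genes that rose and 4 of the 60 that fell, TATAAA in 11 and 14, and ATCAAAG in 2 and 0. These are descriptions of letters in short windows, with no measurement of binding.

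Other large falls were of genes of varied function. CLC, the galectin of Charcot-Leyden crystals, had the largest, from 8.37, 7.56 and 7.34 to 6.51, 5.95 and 5.70 (3.26-fold, drift -1.70, SE 0.25, adjusted p = 0.00431). NPPB, the B-type natriuretic peptide, went from 6.56, 6.66 and 6.02 to 4.93, 5.06 and 4.79, with 1 late array above the floor, at least 2.57-fold (adjusted p = 0.00293). SPP1 (osteopontin, a secreted matrix glycoprotein) fell 2.64-fold and reached its late level of 7.31, 7.35 and 7.34 in a step that began on day 3 (9.01, 9.29, then 7.91). LCP1, an actin-bundling protein of blood cells, fell 2.39-fold (adjusted p = 0.008), MME, the membrane protease neprilysin, 2.38-fold (adjusted p = 0.00814), and AFP, the fetal plasma protein, 2.16-fold (adjusted p = 0.0122). PHLDA3, a p53 target that restrains AKT, fell 2.10-fold (adjusted p = 0.00742) as the only one of 19 tested cell cycle inhibitors and p53 targets. Over all tested genes 0.645% were called lower. FOXL2NB, OGFRL1, PDZD4 and SLC7A14 fell by 2.13-fold, 2.09-fold, 2.08-fold and 2.04-fold, and OGFRL1 and SLC7A14 each lost the call in 10 or more alternatives, with adjusted p up to 0.212 and 0.258. The calls of SPP1, LCP1, MME and AFP were lost without day 1 or day 2, that of PHLDA3 without day 2, and that of FOXL2NB without day 1, 2, 3 or 6.

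NODAL, the TGF-beta ligand of primed cells, fell out of the measurable range. It read 5.93, 6.27 and 5.27 on days 1 to 3, all above the floor, and 4.89, 4.45 and 4.80 on days 5 to 7, all below it, with 6.59 on day 0. The fall was at least 1.71-fold (drift -1.11, SE 0.26, adjusted p = 0.0422), and the call was lost without any one of days 1, 2, 5, 6 and 7. NODAL passed the filter only through the early window, where it is high, which limits this adjusted p. Its feedback inhibitors LEFTY1 (drift -1.20, adjusted p = 0.0826) and LEFTY2 (drift -0.84, adjusted p = 0.200) and the ligand GDF3 (drift -0.57, adjusted p = 0.262) did not pass. Both LEFTY genes did without day 3. NODAL was the only call among 13 tested genes of the pathway, where 0.645% of all tested genes were called lower. The median drift of the 13 was -0.15 (-0.24 to 0.03 with 1 array left out). When only genes above the floor on all 6 arrays were fitted, 10 were tested, 0 were called and the median was 0.12. In FGF and ERK feedback 1 of 15 fell, against 0.645% of all tested genes. This was ETV4, an ETS factor induced by FGF, which fell 1.52-fold (8.88, 9.07 and 8.94, then 8.24, 8.58 and 8.27, adjusted p = 0.0364). Its relative ETV5 (drift -0.59, adjusted p = 0.0727) and the phosphatase DUSP6 (drift -0.40, adjusted p = 0.243) had non-overlapping windows without passing. The ETV4 call was lost without any one of days 1, 2, 3, 5 and 7.

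Within the core pluripotency list, which also holds marker genes such as GAL and THY1, calls went both ways, but most members drifted down. Of 28 tested genes 4 fell (GAL, NANOG, THY1 and L1TD1), 2 rose (SOX2 and SALL4) and 22 did not pass. Over all genes 0.645% were called lower and 0.806% higher. The median drift of the 28 was -0.23 against -0.0095 over all genes. A positive drift was seen in 6 of the 28, against 5702 of 11783 over all genes. Late values lay wholly below the early ones in 10 and wholly above in 3 (9.77% and 8.95% over all genes). With arrays centred on housekeeping genes 5 fell and 0 rose by limma. NANOG had 8.20, 8.12 and 7.89 on days 1 to 3 and 7.13, 7.07 and 7.26 on days 5 to 7, with 7.65 on day 0 and 7.78 on day 4. The fall was 1.89-fold (drift -0.92, SE 0.15, adjusted p = 0.00561), its second probe had a drift of -0.49, and the call was lost without day 1 and with day 4 in the late window (adjusted p up to 0.0713). POU5F1 was not called: it read 12.21, 12.23 and 12.12 and then 12.15, 12.21 and 11.72 (drift -0.16, 95% interval -0.41 to 0.09, adjusted p = 0.609), and its widest gap was between day 0 (12.70) and day 7. SOX2 rose 1.38-fold in 3 closely spaced values per window, 11.11, 11.02 and 11.06, then 11.48, 11.51 and 11.59 (drift 0.46, SE 0.09, adjusted p = 0.0205). The SOX2 call did not hold with arrays centred on housekeeping genes or without any one of days 1, 2, 3 and 7 (adjusted p up to 0.145).

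GAL, the neuropeptide galanin that embryonic stem cells transcribe at high level, fell most among these genes, from 11.33, 11.37 and 11.13 to 10.30, 10.39 and 9.72 (2.20-fold, drift -1.14, SE 0.15, adjusted p = 0.00154). THY1, a surface glycoprotein used to mark the cells, fell 1.58-fold (11.20, 11.18 and 11.40, then 10.57, 10.89 and 10.31, adjusted p = 0.0198), and L1TD1, an RNA-binding protein of pluripotent cells, fell 1.47-fold (12.26, 12.21 and 11.88, then 11.52, 11.66 and 11.50, adjusted p = 0.0194). SALL4, a zinc finger partner of POU5F1, rose 1.40-fold (11.47, 11.14 and 11.37, then 11.83, 11.93 and 11.66, adjusted p = 0.0392), with 10.47 on day 0, and lost its call in 12 of 17 alternatives. THY1 and L1TD1 lost theirs without day 1, 2, 5 or 7, and THY1 also without day 3. DPPA2 had a drift of -0.80 (adjusted p = 0.0725) and DPPA4, its chromatin partner, of -0.27 with very even windows (12.18, 12.17 and 12.19, then 11.92, 11.91 and 11.90, adjusted p = 0.143). Without day 1 the list had 0 rises and 1 fall by limma, and with day 4 in the late window the same counts, and without day 7 the median was -0.15.

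**Figure D4:**
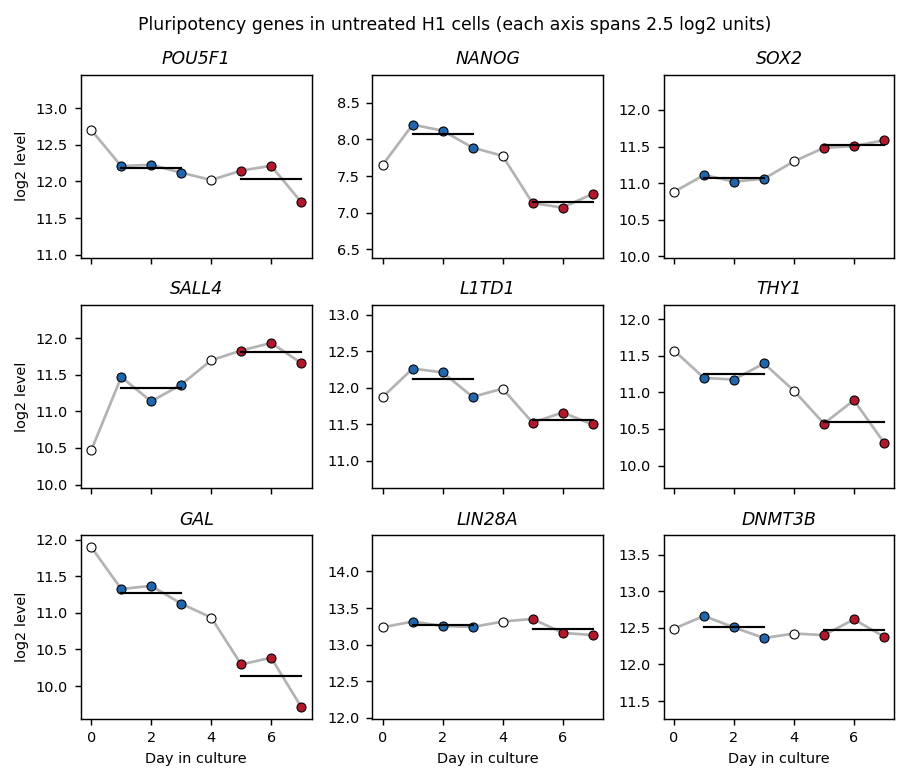
Log2 level (vertical axes, each spanning 2.5 log2 units) of 9 pluripotency genes on the 8 untreated arrays (horizontal axis, day in culture). Blue points are days 1 to 3, red points days 5 to 7, open points days 0 and 4, and black bars the window means; NANOG, L1TD1, THY1 and GAL have all red points below all blue points, SOX2 and SALL4 have them above, and LIN28A stays between 13.13 and 13.35.

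Calls among the other state markers went in both directions. Of 17 tested primed epiblast genes OTX2 and SOX11 rose, and ETV4 and THY1 fell, against 0.806% higher and 0.645% lower over all genes. SOX11, an HMG-box factor of epiblast and neural progenitors, rose 1.87-fold (9.54, 10.08 and 9.73, then 10.61, 10.43 and 11.02, adjusted p = 0.00866), although a second SOX11 probe had a drift of 0.11 and the call did not hold with the mean of the probes. Among 7 tested genes of naive pluripotency DPPA5 alone passed, with a fall of 1.84-fold (6.25, 6.16 and 5.84, then 5.11, 5.36 and 5.13, adjusted p = 0.0368). Of 19 tested epithelial junction genes CLDN7, a claudin, fell 1.60-fold (9.73, 9.85 and 9.55, then 9.03, 9.27 and 8.78, adjusted p = 0.0215), and E-cadherin (CDH1) had a drift of 0.35 (adjusted p = 0.117). MT1X, a metal-binding metallothionein, fell 1.63-fold (adjusted p = 0.0368) and SLC7A5, the large neutral amino acid transporter, 1.52-fold (adjusted p = 0.0368). The calls of DPPA5, CLDN7 and SLC7A5 were lost without day 1, 2, 5 or 7, those of DPPA5 and SLC7A5 also without day 6, that of MT1X without day 1, 3, 6 or 7, and that of SOX11 without day 1.

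The members of 12 lists for proliferation, energy, protein synthesis and general upkeep gave no call by limma, where 1.45% of all tested genes were called. In G1/S and DNA replication 0 of 19 genes passed, with RRM2, a subunit of ribonucleotide reductase, at a drift of -0.83 (adjusted p = 0.162), and in G2/M 0 of 22, with the spindle motor KIF11 at 0.32 (adjusted p = 0.298). The median drifts of these lists were -0.03 and 0.03. The respiratory chain had 0 calls among 26 (median -0.0069), led by SDHA at -0.30 (adjusted p = 0.283), and translation and chaperonin genes 0 among 19, led by CCT7 at -0.17 (adjusted p = 0.454). Cytosolic ribosomal protein genes had 0 among 30 with a median of 0.05, RPS23 being the largest at 0.36 (adjusted p = 0.143), though RPS12, outside the list, fell (drift -0.38, adjusted p = 0.0499). Cholesterol synthesis (0 of 18, CYP51A1 at -0.39), fatty acid synthesis and lipid storage (0 of 14, PLIN2 at 0.67), heat shock proteins (0 of 15, DNAJB1 at 0.39), endoplasmic reticulum chaperones (0 of 15, SDF2L1 at -0.38), interferon and MHC class I genes (0 of 19, IRF1 at -0.72), chromatin and DNA methylation (0 of 23, TET1 at 0.40) and housekeeping genes (0 of 24, VPS29 at 0.32) were alike in this. At an unadjusted p under 0.05 these 12 lists held 0 to 5 higher and 0 to 2 lower genes each, the 5 being chromatin genes, where 1 was lower. Over all genes 753 were higher and 870 lower at an unadjusted p under 0.05, and a p that misses the threshold does not show that a gene was unchanged.

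The other side of the question is which genes stay level and bright in the undifferentiated state. Bright genes were taken as the brightest 5% of the tested genes (590 genes with a mean intensity of at least 3147 on the linear scale over the 8 untreated arrays), and stable ones as those whose 8 values span at most 0.5 log2 units and whose drift has a 95% interval within -0.5 to 0.5. Both conditions held for 408 genes, which is 3.46% of all tested genes and most of the bright ones. Their values chose them, so they are described without a test, and because brightness depends on the probe, genes are not ranked against each other. The median span over 8 arrays was 0.40 for bright genes and 0.69 for all tested genes. Day 0 was one end of the span in 297 of the 590 bright genes, and without that array 496 had a span within 0.5.

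Of 28 tested genes of the core pluripotency list 7 met both conditions: LIN28A, DNMT3B, ZSCAN10, EPCAM, PODXL, ALPL and JARID2. LIN28A, which blocks maturation of let-7 microRNAs, read 13.24, 13.32, 13.26, 13.24, 13.32, 13.35, 13.16 and 13.13 on days 0 to 7 (span 0.22, drift -0.06). DNMT3B, the de novo DNA methyltransferase of the epiblast, read 12.49, 12.66, 12.51, 12.36, 12.42, 12.40, 12.62 and 12.38 (span 0.30, drift -0.04). ALPL, the alkaline phosphatase used as a stem cell stain, had a drift of 0.00 and a span of 0.49, close to the limit. JARID2, a partner of Polycomb repressive complex, had a span of 0.41 and ZSCAN10, a zinc finger partner of SOX2 and POU5F1, one of 0.45, both with late values below the early ones (drift -0.28 each). EPCAM had a drift of -0.30, and other EPCAM probes gave -0.31 and -0.30.

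The stable and bright set held more cytosolic ribosomal protein genes, 21 of 30 tested, than genes of any other list. Brightness is part of the rule, and of all 590 bright genes 408 met it. The bright members of each list were not counted, so these counts do not single out the ribosome as more stable than other bright genes. RPL19 spanned 0.19 over the 8 days (14.05, 14.25, 14.08, 14.10, 14.06, 14.05, 14.14 and 14.24) and RPL27 likewise 0.19. Translation and chaperonin genes followed with 11 of 19, among them the elongation factor gene EEF1B2 (span 0.17) and NACA of the nascent chain complex (0.21), and the respiratory chain with 10 of 26, where UQCRH of complex III spanned 0.17. Of other lists 4 glycolytic genes (ALDOA, GAPDH, PGAM1 and ENO1), 4 heat shock genes (HSPD1, HSPE1, HSP90AA1 and HSP90AB1), 3 of G2/M (TOP2A, CDC20 and UBE2C), 3 of replication (MCM3, MCM7 and UNG) and the maintenance methyltransferase DNMT1 (span 0.26) belonged to it too. UBE2C, the ubiquitin-conjugating enzyme of the anaphase-promoting complex, spanned 0.18, but its other probe had a drift of -0.38, as other probes of RPL32 (-0.52 and -0.53, against 0.21) and CD24 (-0.58, against -0.06) differed from those used. Of the genes under an intensity of 20000 on every array the 10 with the highest mean were RPL19, RPL24, RPS16, RPL27, RPL10A, RPL30, EIF4A1, TUBA1B and the probes that the platform annotation names CCR6 and XPNPEP3. Of the 408, 46 (ACTB and EEF1A1 among them) reached 20000, near the top of the scale at 28353.

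Membership at the edge turned on small amounts. RPA3 (span 0.4999) and ADM (0.4993) were just inside, ATIC (0.5005) and IL18 (0.5005) just outside, and VCL, with a span of 0.40, was left out by the lower end of its interval at -0.51. With limits of 0.25 in place of 0.5, 53 genes qualified, and with limits of 1, 577. At the other extreme 12 bright genes passed the drift test, 3 of them higher (DDIT4, SFRP1 and BASP1) and 9 lower (TAGLN, MT1X, S100A10, L1TD1, SNAR-A1, RBPMS2, ANXA2, TKT and RPS12). TKT, the transketolase of the pentose phosphate pathway, fell from 13.03, 13.13 and 13.11 to 12.53, 12.80 and 12.57 (drift -0.46, adjusted p = 0.0219). S100A10 and ANXA2, which form a complex at the membrane, both fell, with drifts of -0.57 (adjusted p = 0.0118) and -0.48 (adjusted p = 0.0467). All 3 of these calls were lost without day 1 or day 2, and 13 bright genes had a span over 1.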

How the data were processed

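Total RNA of H1 cells was hybridised to Illumina bead arrays, 1 array per arm and day. The analysis starts from linear intensity values that the authors deposited as a value table. These values show that the authors had quantile normalized the arrays: matching quantiles of the 16 arrays lie within 6.65e-05 log2 units, each array has a median of 128.3, and a shift shared by most genes could therefore not be seen. For software and scanner, the entry is: not given in the sources used here. A table of non-normalized signals has 32 columns whose sample numbers match no label, and these were not used.

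The background (peak 117.3, SD 7.65) was estimated from values below the main peak mirrored about it, corrected with the normexp model, and log2 was taken after adding an offset of 16, which pulls in the changes of dim genes. The floor, 134.3, left 42.6% of the probes above it. The platform annotation pairs 30113 of 47323 probes with 1 gene symbol, 8 with several and 17202 with none. Each of 20046 genes was represented by its probe with the highest mean over the 6 arrays, and 11783 genes above the floor on at least 3 of the 6 were tested. Where no array of a window, or its mean, lay above the floor, a fold is given as "at least N-fold", set against the floor or, where higher, the measured value of the dim window.

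Windows were compared with limma 3.58.1 (R 4.3.3; empirical Bayes with an intensity trend, two-sided), and p-values were adjusted by Benjamini-Hochberg over all tested genes at 0.05. The fit was tested on simulated data. The number of arrays limits the precision. Named were the tested core pluripotency genes, the 15 largest rises and 15 largest falls with non-overlapping windows, up to 3 called members per list (or the member with the largest drift), and stable and bright list members with the 10 brightest under 20000. Other genes are examples of their list and were named after their values were seen. The windows and the 43 lists were chosen with earlier results of these data known, so list counts are descriptions. Of the listed genes 52 had no named probe. Promoter sequences are from RefSeq (GRCh38.p14).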

Additional observations from a re-analysis of the deposited data

How the results depend on the processing

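The count of 171 called genes (95 higher, 76 lower) stayed within 1.5 times under several alternatives. It was 140 without background correction, 169 with an offset of 4 and 150 with an offset of 64. It was 144 with a stricter filter, 156 with the mean of a gene's probes and 182 with day 0 added to the early window. It moved to 62 (42 higher, 20 lower) with no filter on dim probes, where 20046 genes were tested, to 73 (51 higher, 22 lower) with day 4 added to the late window, to 462 (264 higher, 198 lower) with a straight line over days 1 to 7, of which 169 were among the 171, and to 4 (3 higher, 1 lower) without the intensity trend. Centring on housekeeping genes gave 250 calls, 91 higher and 159 lower. With 1 array left out the count ran from 41 (without day 1) to 216 (without day 5), with 31 to 128 higher and 10 to 88 lower. Of 70 named genes that were called 25 kept the call with each of the 6 arrays left out, 42 lost it without day 1 and 37 without day 2. The cause was not tested. The count of stable and bright genes, 408, was 416 without background correction, 577 with limits of 1 and 53 with limits of 0.25. The replicate numbers within a window only stand for days. No paired analysis was possible because each day has 1 untreated array and the windows share no day.

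None of the 171 called genes changed direction in an alternative that gave it a value (149 of them with the stricter filter, all 171 in the others). For most alternatives this was fixed in advance, because the windows of all 171 did not overlap. Leaving out 1 array, or changing the offset, the filter or the variance model, could not turn a sign. Among the named genes the sign turned in 6 that were not called. The drift of ALPL was -3.78e-06 with an offset of 4, -0.0722 with housekeeping centring, -0.0238 with day 0 added, -0.0175, -0.0206 and -0.127 without day 1, 2 or 7 (range -0.127 to 0.119 with 1 array left out). The drift of FOXO1 was -0.0520 with housekeeping centring, -0.00816 with the straight line, -0.0450 without day 3 and -0.00370 without day 5 (up to 0.0829), and the drift of LIN28B was -0.0570 with housekeeping centring, -0.0148 without day 3 and -0.0109 without day 7 (up to 0.0586). The drift of CYP51A1 was 0.00808 with day 0 added, the drift of DNMT3B 0.0328 without day 1 (down to -0.119) and the drift of TERF1 0.0261 without day 7 (down to -0.238). Over the named genes and alternatives 1659 values kept their direction and side of the threshold, 327 lost it, 37 gained it and 16 changed sign. Low signal over background limits the dim genes, whose folds are lower bounds where stated.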
